A study of Mus musculus with 4 samples.

Results

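Genes that act in mitosis and cytokinesis were followed in brown-like adipocytes made in culture from mouse epididymal white fat, with and without a normal Lgr4 gene. The set was a fixed list of 35 genes, from Cdk1 and its cyclins to the motors and scaffolds that separate daughter cells. The genes were listed by known role, but with earlier results of these data known. Of the 35, 34 had a probe set whose platform annotation names that gene alone, among 18193 such genes on the array. Ccnb1, a B-type cyclin, had none and was not analysed here. Each gene is represented by its brightest probe set, judged by the mean of the 4 arrays.

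The RNA came from 2 wild-type and 2 Lgr4 homozygous mutant samples, all from male mice 4 months of age. The starting cells were the stromal vascular fraction (SVF), which is what remains of fat tissue once mature adipocytes are removed and holds preadipocytes beside immune and vascular cells. Both genotypes were grown to confluence in medium with basic fibroblast growth factor (10 ng/ml) and 10% fetal bovine serum. The inducing mixture, given for 48 h, held dexamethasone (1 µM), isobutylmethylxanthine (0.5 mM), insulin (5 µg/ml), T3 (50 nM) and the PPAR gamma agonist troglitazone (5 µM), and was followed by 6 days with insulin, T3 and troglitazone. Lgr4 binds R-spondins and thereby strengthens Wnt signalling. The labels call the 2 samples of a genotype biological replicates but do not say whether they came from separate animals or cultures. The p-values therefore rest on the spread of these samples alone, and that spread may be technical. The labels name neither the strain nor the kind of Lgr4 mutation.

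Signals are log2 values per probe set. As a check of the genotypes, Lgr4 read 8.65 and 8.20 in wild-type samples, against 6.18 and 6.09 in mutant ones. Across all probe sets Pearson's r was 0.995 for the wild-type arrays, 0.998 for the mutant arrays and 0.982 to 0.987 between genotypes. All 8 adipocyte markers measured, among them Adipoq, Fabp4 and Pparg, lay above the signal filter on average in both genotypes. These are markers of adipocytes in general, and the brown-like character was not checked. All 13 macrophage and all 7 stromal progenitor markers also lay above the filter on average in both genotypes. Lying above the filter therefore does not tell these cell types apart.

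Mitosis is driven by the kinase Cdk1 bound to A- and B-type cyclins, together with the Aurora and Polo-like kinases. Kinetochores tie chromosomes to the spindle, a checkpoint holds back the anaphase-promoting complex (APC/C) until all are attached, and the complex then destroys cyclin B and securin. The spindle midzone and a contractile ring complete the split. Most of these genes are transcribed late in the cell cycle, through MuvB, B-Myb and Foxm1 at promoters with CHR elements and CCAAT boxes. Preadipocytes that reach confluence can re-enter the cycle after an adipogenic cocktail before they leave it and differentiate, and mature adipocytes rarely divide.

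Mitosis genes were lower in the Lgr4 mutant samples, by modest amounts. Of the 34 measured, 18 fell (52.9%), none rose and 16 did not pass an adjusted p of 0.05 in limma, whereas 18.7% of all 13173 genes tested were called lower and 11.1% higher. At an unadjusted p under 0.05, 28 of the 34 were lower and 0 higher. The median difference, mutant minus wild-type, was -0.36 on the log2 scale, or 1.29-fold lower. The median was 0.012 over all 18193 genes and -0.035 over the 13173 tested. The differences ran from -0.86 for Ncapg to 0.075 for Foxm1, and 33 of 34 were below 0. At least 1.5-fold lower among the called were 7 members (20.6%), against 5.97% of all genes tested, and none reached 2-fold. In these bulk samples, fewer dividing cells and less mitotic RNA per cell cannot be told apart.

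Both wild-type values lay above both mutant values in 31 of 34 members (91.2%), which was the case in 39.9% of all genes tested. The pairs overlapped in the other members: Aurka, Plk1 and Foxm1. The median over the members was 8.54 and 8.44 in the wild-type samples, and 8.21 in each mutant sample. The wild-type arrays differed from each other more than the mutant arrays did in these genes: their median gap was 0.19, against 0.065 for the mutant arrays, where all genes gave 0.13 and 0.081. Wild-type replicate 1 was the higher of its pair in 26 of the 34 (76.5%), compared with 46.0% of all genes. In 6 members the gap within the wild-type pair was larger than the difference between genotypes. All 34 members lay above the signal filter of 6.13 on every array, the lowest value being 6.54, so none entered the test through 1 genotype alone.

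**Figure D1:**
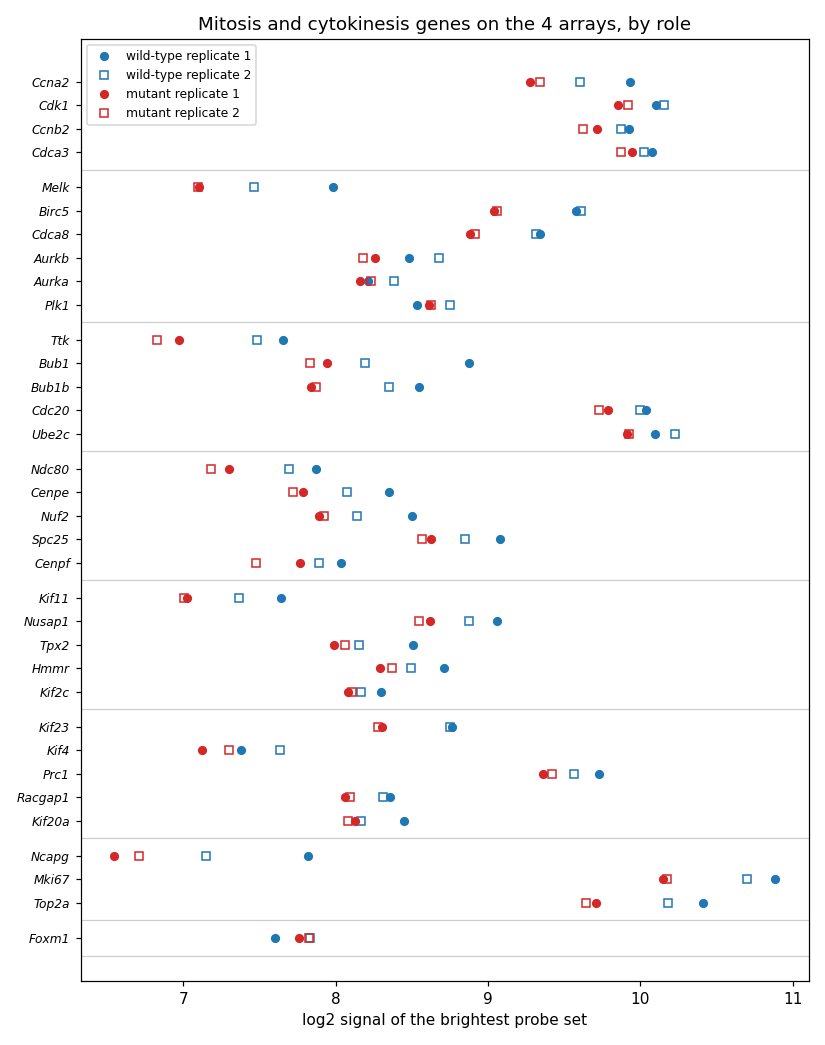
Log2 signal (x axis) of each of the 34 measured mitosis genes on the 4 arrays, with genes grouped by role down the y axis; blue is wild-type, red is mutant, circles are replicate 1 and squares replicate 2. In 31 genes both blue points lie to the right of both red points, and the exceptions are Aurka, Plk1 and Foxm1.

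The count of calls moved with the arrays used. Leaving out an array leaves a single one in that genotype, so a gene's residual spread then comes from the other pair alone. A pass without a wild-type array therefore does not weigh the spread of the wild-type pair. Fewer members were called lower with mutant replicate 1 or mutant replicate 2 left out, and more with wild-type replicate 1 or wild-type replicate 2 left out. The share of all tested genes called lower moved the same way, so the swing is not particular to the members. The sizes moved less, the median being -0.40, -0.34, -0.30 and -0.46 in the same order. When all probe sets of a gene were averaged, the median was -0.24. Of 33 members then tested 14 were called lower, beside 16.5% of all genes tested. When arrays were centred on the median of the tested genes, 14 members were called lower and none higher, beside 14.1% of all genes lower. Plk1 then changed sign (0.029).

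**Figure D2:**
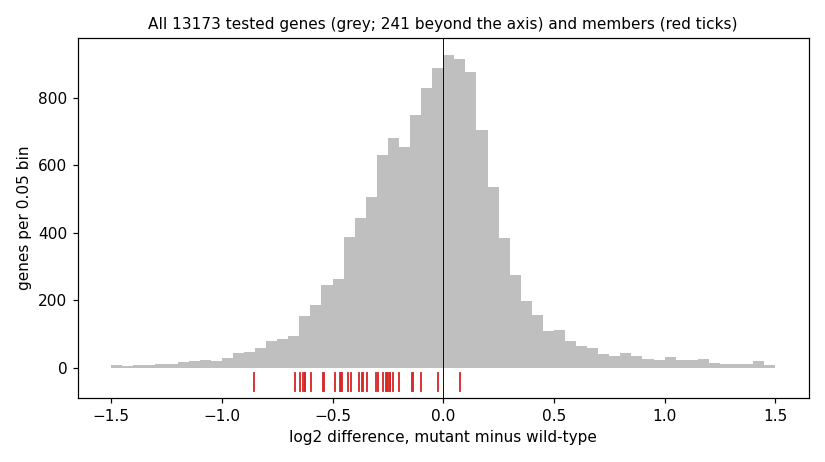
Histogram of the log2 difference, mutant minus wild-type (x axis), for the 13173 tested genes (grey, genes per 0.05 bin; 241 lie beyond the axis), with each mitosis gene as a red tick below. The ticks run from -0.86 to 0.075 with a median of -0.36.

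CHR elements and CCAAT boxes are known at promoters of late cell cycle genes, so the promoters of the members are shown. RefSeq sequences (GRCm38.p6) of 250 bases before and 50 after the start site matched 30 of the 35 genes; those of Ccna2, Aurkb, Tpx2, Kif20a and Foxm1 were not matched. They were searched on both strands for the CHR letters TTTGAA and TTCGAA, and for CCAAT. The last base of a CHR can also begin a reversed CCAAT box. In the whole 300 bases, 24 of 30 members (80.0%) held a CHR, compared with 21.7% of the 27025 genes in the table. CCAAT was found in 24 of 30 (80.0%) against 41.1%, and both motifs in 22 of 30 (73.3%) against 8.61%. The CHR nearest to the start began within 50 bases of it in 22 of the 24, and in 16 it lay after the start or across it. When only the 250 upstream bases were searched, the CHR share was 36.7% against 19.6%. A match is a description of letters, not a measured site.

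Upstream bases are printed for the measured Cdk1 and cyclin group and for the 3 members with the largest differences, Ncapg, Ttk and Bub1. Capitals mark CHR and CCAAT letters on either strand, and each run ends at the base before the start site.
Cdk1, chr10:69352913-69353162, minus strand: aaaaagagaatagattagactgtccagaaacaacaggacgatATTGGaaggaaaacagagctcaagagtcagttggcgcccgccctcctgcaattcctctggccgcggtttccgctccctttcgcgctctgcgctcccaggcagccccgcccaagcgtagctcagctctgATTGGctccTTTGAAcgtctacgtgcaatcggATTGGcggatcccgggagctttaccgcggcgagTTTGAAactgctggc
Ccnb2, chr9:70421555-70421804, minus strand: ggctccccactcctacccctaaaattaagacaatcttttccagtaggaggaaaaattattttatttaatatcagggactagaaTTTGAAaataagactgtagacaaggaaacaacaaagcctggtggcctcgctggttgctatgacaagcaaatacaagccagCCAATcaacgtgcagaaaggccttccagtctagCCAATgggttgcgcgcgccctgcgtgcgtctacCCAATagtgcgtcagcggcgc
Cdca3, chr6:124829926-124830175, plus strand: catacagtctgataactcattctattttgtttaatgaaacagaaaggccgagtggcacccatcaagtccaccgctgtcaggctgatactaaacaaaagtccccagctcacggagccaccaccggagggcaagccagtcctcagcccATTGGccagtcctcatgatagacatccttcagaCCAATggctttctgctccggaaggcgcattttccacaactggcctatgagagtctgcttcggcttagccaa
Ncapg, chr5:45669675-45669924, plus strand: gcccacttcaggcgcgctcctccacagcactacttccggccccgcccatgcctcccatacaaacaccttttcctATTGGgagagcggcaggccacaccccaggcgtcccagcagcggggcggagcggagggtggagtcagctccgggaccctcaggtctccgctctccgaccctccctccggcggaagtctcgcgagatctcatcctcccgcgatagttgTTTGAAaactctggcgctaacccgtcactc
Ttk, chr9:83834439-83834688, plus strand: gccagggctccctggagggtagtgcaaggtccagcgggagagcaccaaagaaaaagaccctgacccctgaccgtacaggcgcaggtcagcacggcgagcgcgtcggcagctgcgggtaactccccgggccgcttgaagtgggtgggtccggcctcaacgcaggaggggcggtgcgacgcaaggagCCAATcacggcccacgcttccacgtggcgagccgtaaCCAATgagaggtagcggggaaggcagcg
Bub1, chr2:127831860-127832109, minus strand: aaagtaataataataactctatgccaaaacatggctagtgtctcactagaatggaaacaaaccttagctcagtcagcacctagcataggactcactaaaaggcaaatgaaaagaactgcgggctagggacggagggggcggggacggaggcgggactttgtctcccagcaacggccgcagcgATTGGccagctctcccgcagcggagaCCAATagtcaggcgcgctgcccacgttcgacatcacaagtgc
In Cdk1 a CHR starts 15 bases before the start site and a second one 71 bases before it, and 3 CCAAT boxes lie 48, 80 and 208 bases before it. Ncapg, which fell most, holds 1 CHR 30 bases upstream and 1 CCAAT box farther off. The upstream bases of Cdca3, Ttk and Bub1 hold 2 CCAAT boxes each and no CHR.

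In those 3 genes and several others the CHR comes just after the start. Stretches around it are given for 3 members that fell (Bub1, Ttk, Kif23) and 4 that did not pass (Ccnb2, Cdca3, Aurka, Plk1), with the CHR in capitals.
Bub1, chr2:127831830-127831855, minus strand: gcgcggggaaTTCGAAtcgccggcgg
Ttk, chr9:83834686-83834711, plus strand: gcggggaaatTTCAAAcgtgtttccg
Kif23, chr9:61946782-61946807, minus strand: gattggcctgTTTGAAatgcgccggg
Ccnb2, chr9:70421535-70421560, minus strand: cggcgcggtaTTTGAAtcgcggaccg
Cdca3, chr6:124830196-124830221, plus strand: tggagggaagTTTGAAactccgggct
Aurka, chr2:172370523-172370548, minus strand: aaggagaaccTTTGAAttgtaacggc
Plk1, chr7:122159455-122159480, plus strand: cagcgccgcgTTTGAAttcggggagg
These stretches were picked by name as examples. The letters stand near the start of genes that fell by 0.46 to 0.67. They also stand near that of genes such as Plk1, whose difference was near 0. Whether a CHR goes with the fall was not tested. Of the measured members with a promoter sequence, 11 of the 16 that fell (68.8%) and 13 of the 13 that did not pass (100%) held a CHR in the 300 bases, and 11 of 16 and 12 of 13 held CCAAT. These counts are given without a test.

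Of the 4 measured genes of the core entry machinery 1 passed, Ccna2, beside 18.7% of all genes tested called lower. At an unadjusted p under 0.05 in limma, 3 of the 4 were lower and 0 higher. Ccna2, the A-type cyclin that serves Cdk2 in S phase and Cdk1 at mitotic entry, read 9.93 and 9.61 in wild-type samples, against 9.28 and 9.34 in mutant ones. It fell by 0.46 (SE 0.12, adjusted p = 0.0234), or 1.38-fold. It was the only one of the 4 measured genes of this group to pass; its difference without mutant replicate 1 was -0.43 (adjusted p = 0.126) and without replicate 2 it was -0.49 (adjusted p = 0.0648), so the call ended in both. Without wild-type replicate 1 it was -0.30. Its second probe set, with 9.41 and 9.26 against 9.01 and 8.96, also separated the genotypes.

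Cdk1, the mitotic kinase itself, read 10.10 and 10.15 in wild-type samples, against 9.85 and 9.92 in mutant ones, a difference of -0.24 (SE 0.093, adjusted p = 0.0838). Ccnb2, a B-type cyclin that activates it, read 9.92 and 9.87 against 9.71 and 9.62, a difference of -0.23 (SE 0.094, adjusted p = 0.103). Cdca3, part of the machinery that degrades the Cdk1 inhibitor Wee1, gave the smallest difference of the group, with 10.07 and 10.02 against 9.94 and 9.87 (-0.14, 95% interval -0.35 to 0.07, adjusted p = 0.288). In all 3 both wild-type values were above both mutant values although the differences did not pass.

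Among the mitotic kinases and their partners, the chromosomal passengers fell while Plk1 and Aurka did not pass. This complex, made of Aurora B, survivin, borealin and Incenp, corrects faulty kinetochore attachments and later acts at the midzone. Birc5, which encodes survivin, read 9.58 and 9.61 in wild-type samples, against 9.04 and 9.06 in mutant ones, the values of each pair lying close together. It fell by 0.54 (SE 0.091, adjusted p = 0.00322), or 1.46-fold. Cdca8, encoding borealin, read 9.34 and 9.31 against 8.88 and 8.91 and fell by 0.43 (adjusted p = 0.00958), and its other 2 probe sets were lower by 0.44 and 0.40. Aurkb fell by 0.36 (adjusted p = 0.0329). Cdca8 did not pass without mutant replicate 1 (-0.41, adjusted p = 0.121) or replicate 2 (-0.44, 0.0857), nor did Aurkb (-0.40, 0.144, and -0.32, 0.250).

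Melk, a kinase of dividing cells, read 7.98 and 7.46 in wild-type samples, against 7.10 and 7.09 in mutant ones and fell by 0.63 (SE 0.16, adjusted p = 0.0189). The mutant values were nearly equal while the wild-type values lay 0.52 apart, with replicate 1 the higher. The Melk difference ran from -0.37 without wild-type replicate 1 to -0.88 without replicate 2. Plk1, the Polo-like kinase of mitotic entry and exit, read 8.53 and 8.75 against 8.61 and 8.62, so both mutant values lay between the wild-type ones. Its difference was -0.025 (95% interval -0.27 to 0.22, adjusted p = 0.879), and the sign turned without wild-type replicate 2 (0.083). Aurka, the spindle pole kinase, gave -0.10 (95% interval -0.33 to 0.13, adjusted p = 0.496) with overlapping pairs.

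All 3 checkpoint kinases and pseudokinases in the set fell. Ttk (Mps1), which starts the checkpoint signal at unattached kinetochores, read 7.65 and 7.48 in wild-type samples, against 6.97 and 6.82 in mutant ones. It fell by 0.67 (SE 0.11, adjusted p = 0.00243), or 1.59-fold. Bub1, a kinase that recruits other checkpoint proteins, read 8.87 and 8.19 against 7.94 and 7.83 and fell by 0.65 (SE 0.19, adjusted p = 0.0364). The Bub1 wild-type values lay 0.68 apart, more than the genotypes did, and its difference was -0.31 without wild-type replicate 1 and -0.99 without replicate 2. It no longer passed without mutant replicate 2 (-0.59, adjusted p = 0.0516) with centring on the tested genes (-0.59, 0.0585) or when every probe set was tested (0.0593). Bub1b (BubR1), which binds and restrains Cdc20, read 8.55 and 8.35 against 7.84 and 7.87 and fell by 0.60 (SE 0.10, adjusted p = 0.00373). A second probe set of Bub1b above the filter was lower by 0.62.

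The partners of the APC/C did not pass with all 4 arrays as deposited, though Cdc20 did once arrays were centred on their medians. Ube2c passed without wild-type replicate 1 (-0.31, adjusted p = 0.0232) and Cdc20 without wild-type replicate 2 (-0.28, adjusted p = 0.0286). Ube2c, its ubiquitin-conjugating enzyme, read 10.10 and 10.23 in wild-type samples, against 9.91 and 9.92 in mutant ones (-0.24, SE 0.10, adjusted p = 0.0925). Cdc20, its activator, gave -0.26 (SE 0.092, adjusted p = 0.0689). The probe sets of Cdc20 disagreed, since the other 2, both above the filter, were higher in the mutant by 0.029 and 0.065.

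Kinetochore genes fell in 4 of 5 cases. Ndc80, whose protein grips microtubule ends, read 7.87 and 7.69 in wild-type samples, against 7.30 and 7.18 in mutant ones and fell by 0.54 (SE 0.10, adjusted p = 0.00638), or 1.45-fold. Cenpe, a kinesin that carries chromosomes to the spindle equator, read 8.35 and 8.08 against 7.79 and 7.72 and fell by 0.46 (adjusted p = 0.0181). Nuf2, the direct partner of Ndc80, read 8.50 and 8.14 against 7.89 and 7.92 and fell by 0.42 (adjusted p = 0.0400). Spc25, a further subunit of the same complex, fell by 0.37 (adjusted p = 0.0352). The fourth subunit of the complex, Spc24, was no member and did not pass (7.75 and 7.97 against 7.61 and 7.76, with overlapping pairs; -0.17, adjusted p = 0.280). Cenpf, a large protein of the outer kinetochore, was the exception, with 8.04 and 7.89 against 7.77 and 7.48 (-0.34, SE 0.12, adjusted p = 0.0647), though it passed without wild-type replicate 2 (-0.41, adjusted p = 0.0232).

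Of these 4 calls none held in every leave-out. Ndc80 was lost without mutant replicate 2 (-0.48, adjusted p = 0.0631), and Cenpe without mutant replicate 1 (-0.49, 0.0674) or 2 (-0.42, 0.116). Nuf2 and Spc25 were lost without wild-type replicate 1 (-0.24, 0.0607, and -0.25, 0.0521) and without mutant replicate 1 (-0.40, 0.163, and -0.40, 0.150) or 2 (-0.43, 0.118, and -0.34, 0.229). Spc25 was also lost when its probe sets were averaged (-0.13, 0.290).

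In the spindle group 2 of 5 genes fell. Kif11 (Eg5), the kinesin that pushes spindle poles apart, read 7.64 and 7.36 in wild-type samples, against 7.024 and 7.002 in mutant ones and fell by 0.49 (SE 0.11, adjusted p = 0.0140). A second Kif11 probe set above the filter was lower by 0.69. Nusap1, which bundles microtubules near chromatin, read 9.06 and 8.87 against 8.62 and 8.55 and fell by 0.38 (SE 0.10, adjusted p = 0.0248). The other Nusap1 probe set lay below the filter (mean 5.22). Both calls ended without mutant replicate 1 (Kif11 -0.50, adjusted p = 0.0647; Nusap1 -0.42, 0.124) and without mutant replicate 2 (-0.48, 0.0717, and -0.35, 0.205), and that of Nusap1 with averaged probe sets (-0.16, 0.172).

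Tpx2, the activator of Aurora A on the spindle, read 8.51 and 8.15 in wild-type samples, against 7.99 and 8.06 in mutant ones (-0.30, SE 0.13, adjusted p = 0.107). Its other 3 probe sets above the filter gave 0.28, -0.40 and 0.13, so they differed in sign. Kif2c, a kinesin that takes microtubules apart at their ends, gave the smallest difference, with 8.30 and 8.16 against 8.08 and 8.11 (-0.13, 95% interval -0.36 to 0.09, adjusted p = 0.323). With all Kif2c probe sets averaged the difference was 0.0010. Hmmr, a spindle-associated hyaluronan receptor, gave -0.27 (SE 0.11, adjusted p = 0.0917).

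Of the genes of the midzone and of cytokinesis, 1 of 5 passed and fell, a share near the 18.7% of all genes tested. At an unadjusted p under 0.05 in limma, 4 of the 5 were lower and 0 higher. Both wild-type values lay above both mutant values in 5 of 5, against 39.9% of all genes tested. Kif23 (MKLP1), the motor subunit of centralspindlin, read 8.76 and 8.75 in wild-type samples, against 8.30 and 8.28 in mutant ones, each pair close together. It fell by 0.46 (SE 0.091, adjusted p = 0.00656), or 1.38-fold, a call that ended without mutant replicate 1 (-0.48, adjusted p = 0.0678) or 2 (-0.45, 0.0790). Racgap1, the other subunit of centralspindlin, gave -0.25 (SE 0.092, adjusted p = 0.0718), and a second probe set above the filter gave -0.36. Kif4, which works with Prc1 to set midzone length, read 7.38 and 7.63 against 7.12 and 7.30 (-0.29, SE 0.12, adjusted p = 0.0971).

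Prc1, which crosslinks the antiparallel microtubules of the midzone, read 9.73 and 9.57 in wild-type samples, against 9.36 and 9.42 in mutant ones (-0.26, SE 0.10, adjusted p = 0.0885). Kif20a, a midzone kinesin, gave the smallest difference of the group, with 8.45 and 8.16 against 8.13 and 8.08 (-0.20, 95% interval -0.47 to 0.06, adjusted p = 0.223). Its wild-type replicate 2 lay close to the mutant arrays, and replicate 1 apart from the other 3 arrays.

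The genes of chromosome structure all fell, 3 of 3, with a median difference of -0.63. Ncapg, a subunit of condensin I, which compacts mitotic chromosomes, read 7.82 and 7.15 in wild-type samples, against 6.54 and 6.71 in mutant ones. It fell by 0.86 (SE 0.19, adjusted p = 0.0121), or 1.81-fold, and its second probe set, with 7.24 and 6.85 against 6.46 and 6.29, was lower by 0.67. The Ncapg wild-type arrays lay 0.67 apart, and the difference ran from -0.52 without wild-type replicate 1 to -1.19 without replicate 2. Mki67, the antigen Ki-67 that coats mitotic chromosomes and marks cycling cells, read 10.89 and 10.70 against 10.15 and 10.17. It fell by 0.63 (SE 0.10, adjusted p = 0.00271), or 1.55-fold.

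Top2a, the topoisomerase that untangles sister DNA, read 10.41 and 10.18 in wild-type samples, against 9.71 and 9.64 in mutant ones and fell by 0.62 (SE 0.11, adjusted p = 0.00380). Its 2 dimmer probe sets did not follow: one above the filter was higher in the mutant by 0.097 and one below it by 0.19. With the 3 averaged, the Top2a difference was -0.11 (adjusted p = 0.320).

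Foxm1, the transcription factor that drives many of these genes, was the only measured member with a difference above 0. It read 7.60 and 7.83 in wild-type samples, against 7.76 and 7.82 in mutant ones, so the pairs overlapped (0.075, 95% interval -0.17 to 0.32, adjusted p = 0.632). The sign turned without wild-type replicate 1 (-0.038), and the other 2 Foxm1 probe sets above the filter gave 0.011 and -0.12.

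**Figure D3:**
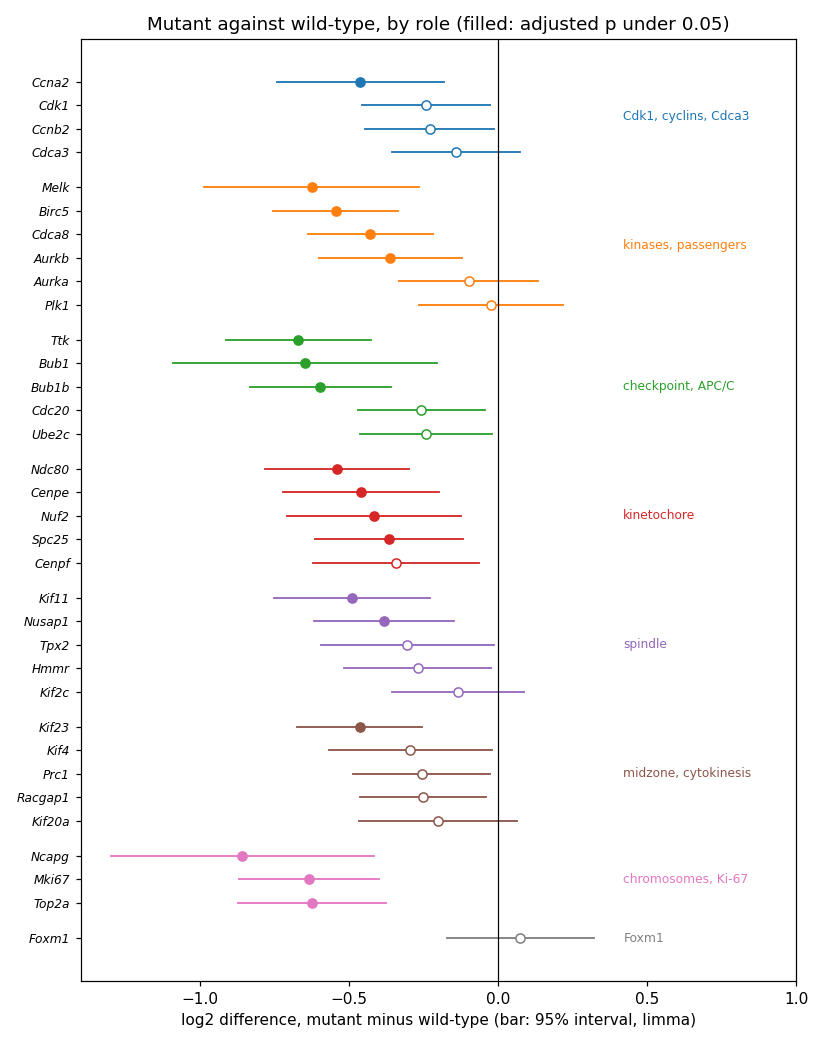
Log2 difference, mutant minus wild-type (x axis), for the 34 mitosis genes, ordered by role and within it by size; bars are 95% intervals from limma with 2 arrays a genotype, filled points passed an adjusted p of 0.05. The 3 genes of chromosome structure lie at -0.62 or below, and Foxm1 alone lies right of 0.

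Of the 18 members that fell, 7 passed in all 4 analyses that left out an array: Birc5, Melk, Bub1b, Ttk, Top2a, Ncapg and Mki67. Of these, Top2a was lost with averaged probe sets, as above, while the other 6 passed in each alternative that tested them. Centring on the tested genes ended the calls of Aurkb (adjusted p = 0.0592), Nuf2 (0.0732) and Spc25 (0.0667) as well as Bub1. A second quantile normalization ended those of Aurkb (0.0841), Nuf2 (0.0587), Spc25 (0.0738) and Nusap1 (0.0524). Adjusting over every probe set in place of 1 a gene ended those of Nuf2 (0.0600) and Spc25 (0.0518) beside Bub1, and leaving out the signal filter that of Nuf2 (0.0501). In the other direction, 3 members passed when arrays were centred on their medians: Cdc20 (0.0437), Cenpf (0.0449) and Racgap1. Without wild-type replicate 1, Cdk1, Ube2c and Kif4 passed. Without wild-type replicate 2, 8 more did: Ccnb2, Cdc20, Cenpf, Tpx2, Hmmr, Kif20a, Prc1 and Racgap1. At the other end, Cdca3, Aurka, Plk1, Kif2c and Foxm1 passed in none. Over the 41 probe sets of members that were not used, 21 lay above the filter, and 14 of those were lower in the mutant.

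Other genes of mitosis, listed by process but with earlier results of these data known, also held many that fell. Of 113 tested, 37 fell (32.7%), 5 rose and 71 did not pass, beside 18.7% and 11.1% of all genes; the median difference over the 120 on the array was -0.22. Leaving out an array gave between 17 and 59 lower and between 1 and 11 higher. Whether the shares differ between the members and these genes was not tested.

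Among further kinetochore and checkpoint genes, 11 of 25 tested fell, 1 rose and 13 did not pass (median -0.33). Ska1, which helps the Ndc80 complex follow shrinking microtubules, fell by 0.70, Cenpq by 0.59 and Cenpi, both of the inner kinetochore, by 0.57, whereas the Knl1 partner Zwint rose by 0.36. Of 16 condensin, cohesin and separase genes, 5 fell, none rose and 11 did not pass (8 lower and 0 higher at an unadjusted p under 0.05). Smc2, a core subunit of condensin, fell by 0.76, Cdca5 (sororin, which guards cohesion) by 0.72 and Ncaph, another condensin I subunit like Ncapg, by 0.59.

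Among further cytokinesis genes 8 of 14 fell, 1 rose and 5 did not pass (median -0.39). Kif20b, a kinesin of late cytokinesis, fell by 0.57 and Incenp, the scaffold of the passenger complex, by 0.57, whereas Septin9, of the septin cytoskeleton, rose by 0.64. Together with Birc5, Cdca8 and Aurkb this made all 4 passenger genes lower. Of 18 further spindle genes, 8 fell, none rose and 10 did not pass (12 lower and 0 higher at an unadjusted p under 0.05). Clasp2, which stabilises microtubule ends, fell by 0.61, the tubulin-binding Stmn1 by 0.49 and the kinetochore fibre protein Dlgap5 by 0.48.

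Among subunits and regulators of the APC/C, genes of mitotic entry and transcription partners, the shares called were near those of all genes tested (18.7% lower and 11.1% higher). Of 17 APC/C genes tested, 2 fell, 1 rose and 14 did not pass (median -0.051). The APC/C inhibitor Fbxo5 (Emi1), itself a gene of cycling cells, fell by 0.62 and the subunit Anapc10 by 0.33, and Anapc16 rose by 0.28. Of 15 entry genes, 2 fell, 1 rose and 12 did not pass (median -0.025): Wee1, which inhibits Cdk1, fell by 0.45, the phosphatase Cdc25b, which activates it, by 0.43, and the Cdk-binding Cks1b rose by 0.41. Of 8 genes of MuvB, B-Myb and NF-Y, Lin54, the MuvB subunit that binds the CHR, fell by 0.64, Nfyc, of the CCAAT-binding NF-Y, rose by 0.36 and 6 did not pass. B-Myb (Mybl2) was below the filter. Of the 21 genes named in these lists as called, 11 passed with each array left out in turn, among them 1 of the 5 that rose (Septin9). The other 10 (Zwint, Cenpi, Anapc10, Anapc16, Dlgap5, Stmn1, Cdc25b, Wee1, Cks1b and Nfyc) were lost without mutant replicate 1. All of these but Dlgap5, Stmn1 and Wee1 were also lost without mutant replicate 2. Cenpi and Anapc10 were lost without wild-type replicate 1 as well.

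Markers of the cells in these samples moved as well. All 8 adipocyte markers rose, with a median difference of 2.54 and summed linear signals of 40898 to 43523 in wild-type and 109557 to 110811 in mutant samples. Of 13 macrophage markers, 6 fell, none rose and 7 did not pass (7 lower and 0 higher at an unadjusted p under 0.05), with summed signals of 123463 to 135046 against 109163 to 109366. Of 7 stromal progenitor markers 3 fell and 4 did not pass, with differences from -2.17 (Thy1) to 0.32 (Cd34). Their sums were 27074 to 28126 against 23293 to 23759, and bright genes such as Dcn (0.014) weigh most in them. Of 7 smooth muscle and mural markers 5 fell, 1 rose and 1 did not pass, with differences from -2.09 (Rgs5) to 0.39 (Cspg4). Their sums were 36277 to 37242 against 22628 to 26429. Endothelial markers ran between 5.46 and 8.42 in mean signal (1 of 6 tested rose), 4 of 5 lymphocyte and 2 of 5 mesothelial markers lay below the filter in both genotypes. The part of these cell types in the lower mitosis signals was not tested.

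**Figure D4:**
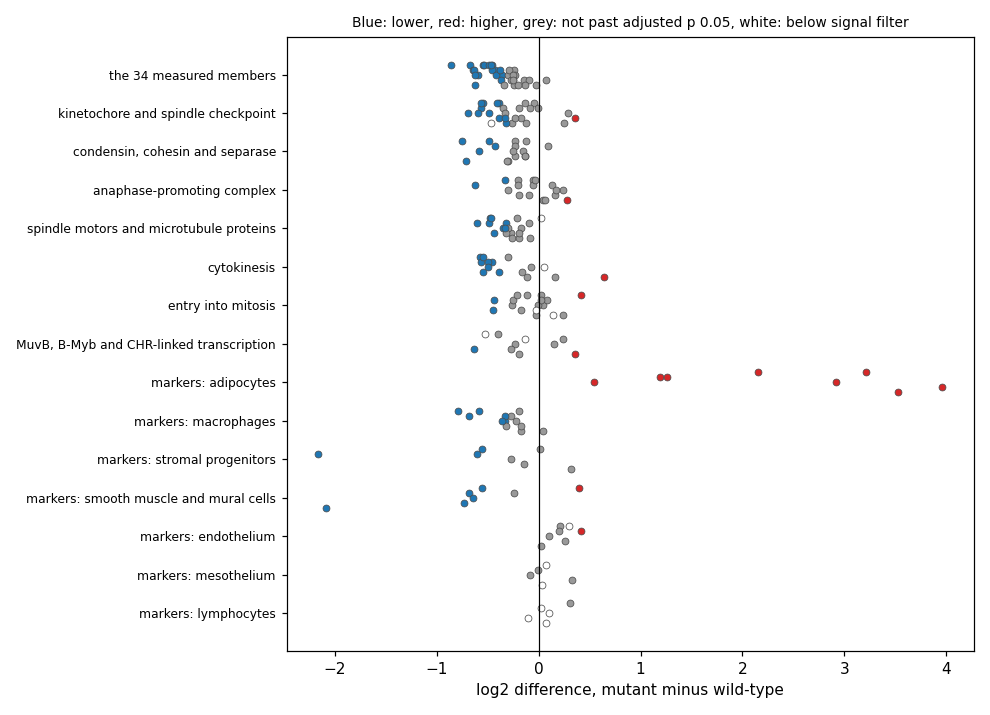
Log2 difference, mutant minus wild-type (x axis), for each gene of the mitosis set, of 7 further lists of mitosis genes and of 7 lists of cell type markers (y axis); blue fell, red rose, grey did not pass and white lay below the signal filter. The mitosis set spans -0.86 to 0.075, and the adipocyte markers span 0.55 to 3.96.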

How the data were processed

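The 4 arrays were 3' expression arrays hybridised with biotinylated RNA made from 500 ng of total RNA, per the labels' protocols. Each deposited value is the log2 signal of a probe set, computed by the authors with Partek 6.6 and RMA, per the submitters' processing notes; no RMA variant is named there. RMA equalises array distributions and compresses differences near background. Of 45101 probe sets, 64 were controls, 34945 named 1 gene, 932 several and 9160 none. Names were updated through RefSeq (GRCm38.p6). Probe sets are not compared in level between genes. Genes above the 40th percentile of mean signal (6.13) were tested, 13173 in all, with limma 3.58.1 under R 4.3.3 (a linear model per gene with moderated variance, 2-sided, Benjamini-Hochberg over all genes tested, threshold 0.05). There are 2 residual degrees of freedom and 6.21 prior ones, and the number of arrays limits precision. Named were all members by role, with array values for the 3 largest and the smallest difference of each role, and of each further list the 3 largest calls and any against its majority. Members and lists were chosen with earlier results of these data known. Alternatives covered the filter, probe set choice, normalization, variance model, replicate block and leaving out each array.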

Additional observations from a re-analysis of the deposited data

How the results depend on the processing

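Signs and sides of the threshold were compared over 14 alternatives, of which centring on the tested genes was chosen after seeing the data. The 31 members other than Plk1, Kif2c and Foxm1 were below 0 in every alternative that gave a value. The sign of Plk1 turned after a second quantile normalization (0.049), with centring on the tested genes (0.029) and without wild-type replicate 2 (0.083, in a range down to -0.13). Kif2c (0.0010) and Foxm1 (-0.00074) turned with averaged probe sets, and Foxm1 without wild-type replicate 1 (-0.038, in a range up to 0.19). Members called lower numbered 14 to 21 with all arrays and 7 to 26 with an array left out, and no member was called higher in any alternative. The median ran from -0.46 to -0.30 with an array left out, and was -0.24 with averaged probe sets. Genes called in all ran from 1851 to 6349 with an array left out, against 3924. Other mitosis genes ran from 17 to 59 lower and from 1 to 11 higher with an array left out, and 3 were higher with averaged probe sets. Of all calls 37.1% were higher in the mutant, and 48.5% with centring on the tested genes. The replicate numbers were not stated to pair the samples; with them as a replicate block, 21 members were lower (Cenpf, Tpx2 and Kif4 added) and 4879 genes called (correlation of same-numbered deviations 0.16). With 2 arrays a genotype, the smallest member difference to pass was -0.36 and the largest not to pass -0.34.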
